A study of Homo sapiens with 4 samples.

Results

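ATP-binding cassette (ABC) transporters were followed in 92.1, an established cell line that comes from a uveal melanoma, the pigment-cell tumour of the eye. Members were taken by symbol, as every gene named ABC with a subfamily letter from A to G and a number, plus TAP1 and TAP2. Of 46 such symbols considered from the table of current gene names, 23 had a row among the 11650 genes of the 4 deposited tables. RNA sequencing covered 2 libraries of parental cells (genotype label parental, titled Ctrl) and 2 libraries of a resistant derivative (genotype label resistant cells, titled Res). The titles name 92.1 for all 4 libraries, but the cell line labels read 92.1 and 93.1 for parental replicates 1 and 2 and 94.1 and 95.1 for resistant replicates 1 and 2. All were taken as 92.1 from the titles, and which of these is right is not known from the sources used here. The sources used here do not give the agent of the resistance, its dose and time, or whether the derivative is a clone or a mixed culture. No allele or treatment is named for either group. Separate cultures are not stated for libraries of the same group, so p-values cover the spread between these libraries alone, and that spread may be technical. Per the labels RNA was poly(A)-selected or depleted of ribosomal RNA, without saying which, and libraries were stranded.

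ABC proteins couple the binding and hydrolysis of ATP, in a conserved nucleotide-binding domain, to the movement of a substrate across a membrane. Subfamily A moves mainly lipids, B holds drug, peptide and mitochondrial transporters, C exports organic anions and drug conjugates, D serves peroxisomes and lysosomes, and G exports sterols and drugs. ABCE1 and the ABCF proteins keep the ATPase domains but have no membrane-spanning part and act in translation. In tumours the family is best known for drug export, above all by ABCB1, ABCC1 and ABCG2.

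The sum of FPKM (fragments of a gene scaled to its transcript length and to the mapped fragments of the library) ran from 282602 to 293481 across libraries, and the true depth is unknown. Mitochondrially encoded genes took 37.2% to 40.6% of it. Markers of the line's identity were present, with the melanosome proteins TYRP1 at 1484 to 2143 FPKM, PMEL at 337.8 to 619.9 FPKM and MLANA at 207 to 221 FPKM over the 4 libraries. All 12 melanocyte identity genes looked for had a row, against 4 of 8 epithelial, 3 of 8 fibroblast, 3 of 8 leukocyte, 1 of 8 endothelial and 4 of 8 retinal pigment epithelium markers. Epithelial markers summed to 11.1 and 13.0 FPKM in parental and 21.9 and 27.2 FPKM in resistant libraries, and leukocyte markers to 32.8 and 27.8 against 13.5 and 12.2 FPKM. Of the leukocyte sum, CD68 held 20.95 and 15.71 against 7.24 and 4.97 FPKM. LCP1 held 11.65 and 11.73 against 6 and 5.72 FPKM, and CD79A at most 1.56 FPKM. Among epithelial markers ESRP1 stood at 8.02 and 9.06 against 12.47 and 9.45 FPKM. KRT18 stood at 2.67 and 3.26 against 6.73 and 9.62 FPKM, and KRT19 at 0.205 and 0.287 against 1.10 and 6.29 FPKM. EPCAM, CDH1, PTPRC, CD3E, PECAM1, CDH5 and VWF were without a row and were not analysed here. In bulk RNA, fewer cells of a type and less RNA per cell cannot be told apart. What part other cell types have in the results was not tested.

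Parental and resistant cells were compared gene by gene with limma on the log2(FPKM + 1) scale. The added 1 understates fold changes of low genes. The test covered genes whose mean reached 1 FPKM, and 22 of the 23 members were among them. The exception was ABCA1. Among 10271 genes tested, 6 (0.0584%) passed a limma adjusted p of 0.05, and no ABC gene was among them. Leaving out 1 library in turn gave 0 to 30 calls, none of them an ABC gene. The ABC gene nearest to the threshold was ABCC11 (limma adjusted p = 0.0788). At an unadjusted limma p under 0.05, 2 members stood higher in resistant cells (ABCB5 and ABCB8), where 6.06% of all genes did, and 3 stood lower (ABCA3, ABCB6 and ABCC11), where 10.2% did. Of these, ABCA3 and ABCC11 had resistant means under 1 FPKM and passed the filter only through their parental level, so a lower resistant value was favoured by the filter. Both resistant libraries lay above both parental libraries for 3 members, against 19.1% of all genes, and below both for 7 members, against 31.8%. The median log2 fold change of the 22 members was -0.14, beside -0.08 over all genes tested. Log2 fold changes were below 0 for 16 of 22 members, against 58.6% of all genes, and for 12 after median-of-ratios scaling. With 2 libraries per group the smallest p that an exact permutation test can give is 0.333.

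**Figure D1:**
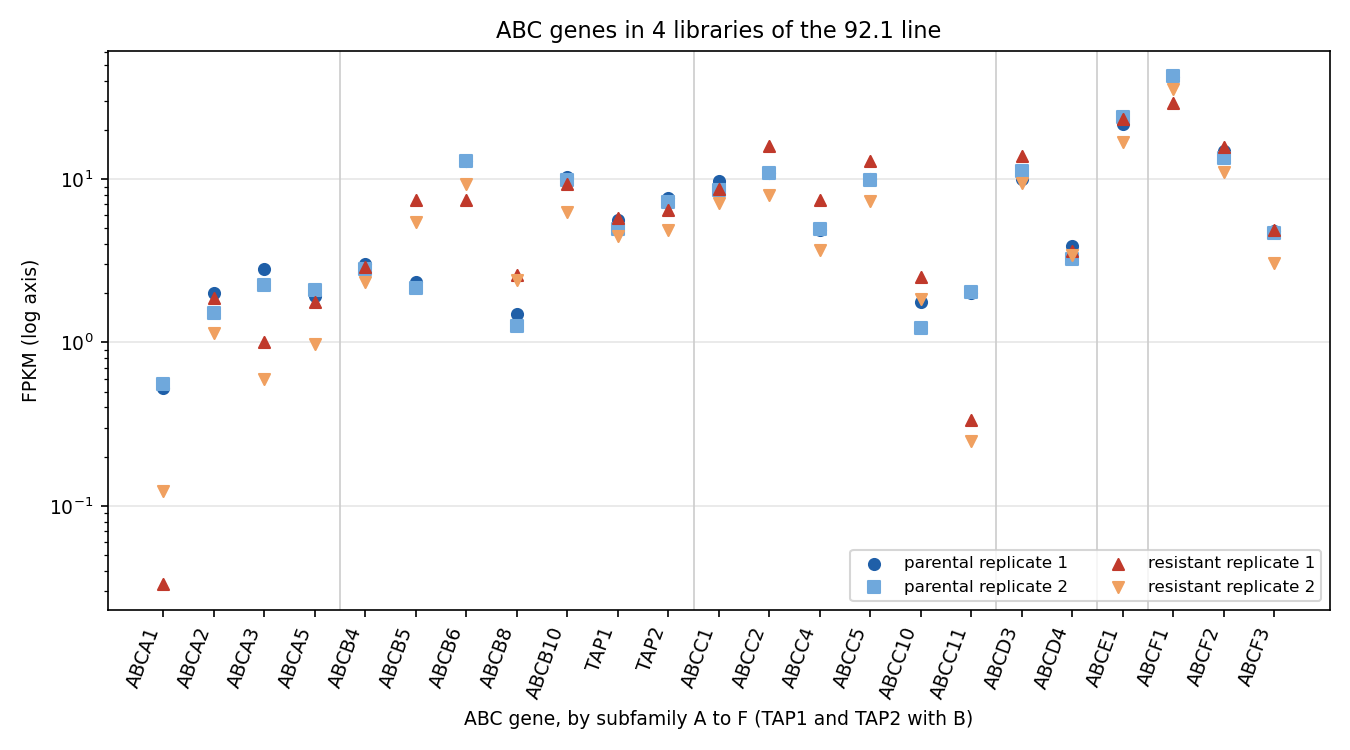
FPKM (log axis) of the 23 ABC genes with a row, ordered by subfamily; each point is 1 library, with circles and squares for parental and triangles for resistant replicates 1 and 2. Both resistant libraries are below both parental ones for 7 of 22 tested genes (31.8% of all genes), ABCA3 and ABCC11 among them, and for the untested ABCA1. They are above both for 3 (19.1%), ABCB5 and ABCB8 among them. For 7 (14.3%), ABCC2, ABCC4 and ABCC5 among them, resistant replicate 1 is above and replicate 2 below both parental libraries.

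Levels per transcript length spread widely within the family. The translation factors led, with ABCF1 at 42.4 ± 0.380 FPKM (SD, n = 2) in parental cells and ABCE1 at 22.8 ± 1.72 FPKM (SD, n = 2). Over the 4 libraries 7 members had a mean of at least 10 FPKM, 5 a mean from 5 to 10 FPKM, and 10 of the tested members a mean under 5 FPKM. Summed over all members, FPKM came to 187.2 and 184.4 for the parental pair and to 184.9 and 145.6 for the resistant pair, so that resistant replicate 2 alone was low. Without the E and F proteins the parental sums were 103.9 and 99.5 FPKM, and the resistant sums 111.8 and 79.2 FPKM.

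Of 15 members looked for as drug exporters, 10 had a row and 5 did not. The 5 were ABCB1 (P-glycoprotein, the classical multidrug exporter), ABCG2 (an exporter of many anticancer drugs), ABCC3, ABCC6 and ABCC12, which were not analysed here. The tables appear to list a gene only where its larger group mean is at least about 0.5 FPKM, so an entry missing from them gives no level in either group. No member of subfamily G had a row, out of 5 symbols looked for. The other members without a row were ABCA4, ABCA6, ABCA7, ABCA8, ABCA9, ABCA10, ABCA12, ABCA13, ABCB9, ABCB11, ABCC8, ABCC9, ABCC13 and ABCD2.

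ABCB5, a relative of P-glycoprotein studied as a marker of drug-tolerant melanoma cells, had the highest log2 fold change of the family. Parental libraries held it at 2.36 and 2.15 FPKM, resistant libraries at 7.40 and 5.45 FPKM. Both resistant libraries thus lay well above both parental ones, with a ratio of means of 2.85. The log2 fold change was 1.18 ± 0.21 (SE) with a 95% interval of 0.64 to 1.71, and it missed the threshold over all genes (limma adjusted p = 0.131, unadjusted 0.00212). Across 11 alternative settings it stayed between 0.99 and 1.45. ABCB5 (ENSG00000004846.16_2) lies on chromosome 7 from 20615207 to 20777038 on the plus strand in GENCODE release 29 on GRCh38. Its relative ABCB4, which flips phosphatidylcholine into bile in the liver, stood at 3.01 and 2.81 FPKM in parental and 2.88 and 2.34 FPKM in resistant libraries, and these values overlapped.

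ABCC11, an exporter of cyclic nucleotides and lipophilic anions known from apocrine glands, had the lowest log2 fold change. Parental libraries held it at 2.02 and 2.04 FPKM and resistant libraries at 0.336 and 0.249 FPKM, a ratio of parental to resistant means of 6.94. The 2 parental values were nearly equal and both resistant values were far below them. Its log2 fold change was -1.23 ± 0.15 (SE), with a 95% interval of -1.61 to -0.85 (limma adjusted p = 0.0788, unadjusted 3.4e-04). With a mean just above 1 FPKM, the gene passed the filter only through its parental level. Over 11 alternatives the limma adjusted p ran from 0.0587 to 0.141, and the log2 fold change was -2.45 with a pseudocount of 0.1. ABCC11 (ENSG00000121270.15_3, chromosome 16 from 48166910 to 48247568, minus strand) overlaps the peroxisomal protease gene LONP2 on the opposite strand. LONP2 stood at 19.2 and 19.8 FPKM in parental and 12.3 and 11.7 FPKM in resistant libraries. The sources used here do not say whether counting used strand, so the division of reads between these genes is uncertain, and its part in the ABCC11 values was not tested.

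In 3 other C subfamily exporters of organic anions, ABCC2, ABCC4 and ABCC5, the resistant libraries lay on either side of the parental pair. ABCC2, the exporter of bilirubin glucuronides in liver, stood at 10.8 FPKM in each parental library, at 15.8 FPKM in resistant replicate 1 and at 7.95 FPKM in resistant replicate 2. ABCC4, which exports cyclic nucleotides and prostaglandins, stood at 4.89 and 4.93 FPKM in parental and 7.40 and 3.68 FPKM in resistant libraries. ABCC5, another exporter of cyclic nucleotides, stood at 10.01 and 9.88 FPKM in parental and 13.0 and 7.35 FPKM in resistant libraries. In each of these genes the parental libraries differed by little, resistant replicate 1 lay above both of them and resistant replicate 2 below both. Their log2 fold changes of 0.05, 0.09 and -0.02 had standard errors of 0.33, 0.31 and 0.28, so their 95% intervals reached from -0.77 to 0.88, from -0.70 to 0.87 and from -0.73 to 0.70. Those are the widest intervals among the 22 members.

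ABCC1, the founding multidrug resistance protein of the subfamily, stood at 9.74 and 8.58 FPKM in parental and 8.63 and 7.12 FPKM in resistant libraries. The groups overlapped, the log2 fold change was -0.20 ± 0.19 (SE) and the 95% interval of -0.68 to 0.29 leaves out a change by a factor of 2 on this scale (limma adjusted p = 0.638). ABCC10, an exporter of taxanes among other substrates, stood at 1.77 and 1.23 FPKM in parental and 2.53 and 1.84 FPKM in resistant libraries. Its resistant values lay above the parental ones, though the lower resistant value was close to the higher parental one (log2 fold change 0.35 ± 0.21 SE, limma adjusted p = 0.458). It overlaps DLK2 on the opposite strand. Over the 6 tested C members the median log2 fold change was 0.02, with 3 above 0 and 3 below.

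**Figure D2:**
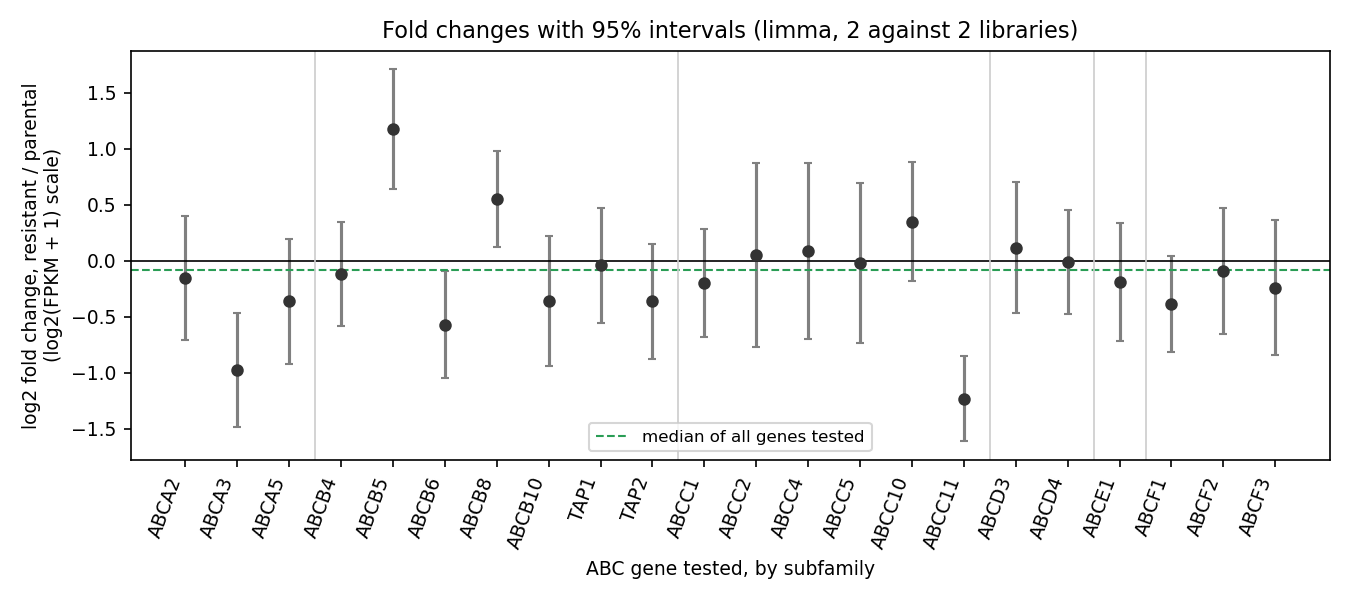
Log2 fold change of resistant over parental cells on the log2(FPKM + 1) scale for the 22 tested ABC genes, with 95% intervals from limma; the dashed line is the median of all genes tested, -0.08. The intervals of 17 genes span 0, and those of ABCB5 and ABCB8 lie above 0 and those of ABCA3, ABCB6 and ABCC11 below it.

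The 4 members of the lipid-moving subfamily A with a row had lower means in resistant cells, where 58.6% of all genes tested had a log2 fold change below 0. For ABCA1 and ABCA3 that direction was favoured by how genes were listed and filtered, and ABCA2 overlapped between groups. ABCA3, which loads phospholipid into lamellar bodies of the lung and into lysosome-like organelles, stood at 2.83 and 2.24 FPKM in parental and 1.01 and 0.600 FPKM in resistant libraries. Both resistant values were below the lower parental value, with a log2 fold change of -0.97 ± 0.20 (SE) and a 95% interval of -1.48 to -0.47 (limma adjusted p = 0.156, unadjusted 0.00401), or -1.57 with a pseudocount of 0.1. It passed the filter only through its parental level. ABCA1, the exporter of cholesterol and phospholipid to apolipoproteins, stood at 0.525 and 0.556 FPKM in parental and 0.0331 and 0.124 FPKM in resistant libraries. It had a row only through its parental level and lay under the filter, so it was not tested in the comparison above, and values this low may rest on few fragments. The endolysosomal ABCA5 (1.92 and 2.10 against 1.78 and 0.977 FPKM) did not overlap between groups, but only resistant replicate 2 was far from the parental pair. On its own strand ABCA5 overlaps ABCA10, which had no row, so the level of ABCA5 is uncertain to that extent. ABCA2, an endolysosomal lipid transporter of brain and myelin, stood at 2.01 and 1.51 against 1.86 and 1.14 FPKM. ABCA3 (chromosome 16 from 2275881 to 2340746, minus strand) has a pseudogene copy, ABCA3P1, and overlaps the pseudogene ABCA17P, so its level is uncertain to that extent.

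The mitochondrial and haem-related B members went apart. ABCB6, a porphyrin transporter of outer mitochondrial and endolysosomal membranes that also serves melanosomes, stood at 13.0 and 12.8 FPKM in parental and 7.44 and 9.37 FPKM in resistant libraries. The groups did not overlap, and the log2 fold change was -0.57 ± 0.19 (SE) with a 95% interval of -1.05 to -0.09 (limma adjusted p = 0.263). ABCB8, an inner mitochondrial membrane transporter linked to iron export, stood at 1.50 and 1.26 FPKM in parental and 2.57 and 2.41 FPKM in resistant libraries. Here both resistant libraries were above both parental ones, with a ratio of means of 1.80 and a log2 fold change of 0.55 ± 0.17 (SE, limma adjusted p = 0.240). ABCB10, needed for haem synthesis, stood at 10.3 and 9.92 against 9.35 and 6.27 FPKM. Both resistant values of ABCB10 were lower, and most of the difference came from resistant replicate 2. ABCB10 has 3 named pseudogenes, ABCB6 lies within a longer read-through gene on its own strand, and ABCB8 has an antisense gene.

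TAP1 and TAP2 together form the pump that carries peptides into the endoplasmic reticulum for loading on class I molecules. TAP1 stood at 5.65 and 4.92 FPKM in parental and 5.78 and 4.50 FPKM in resistant libraries, where the resistant pair enclosed the parental pair. TAP2 stood at 7.71 and 7.29 against 6.45 and 4.87 FPKM, with both resistant values lower. Their log2 fold changes were -0.04 ± 0.20 and -0.36 ± 0.20 (SE), and neither passed (limma adjusted p = 0.941 and 0.429). Both lie on chromosome 6, TAP2 from 32821833 to 32838780 and TAP1 from 32845209 to 32853978. TAP1 overlaps PSMB9 and the noncoding gene PSMB8-AS1 on the opposite strand. TAP2 overlaps a protein-coding gene on its own strand, so its level is uncertain to that extent. Quantile normalization and median-of-ratios scaling each turned the direction of TAP1.

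In subfamily D, ABCD3, which imports branched-chain acyl groups into peroxisomes, stood at 9.94 and 11.2 against 13.9 and 9.50 FPKM and again had 1 resistant library on either side. ABCD4, which helps release cobalamin from lysosomes, overlapped between groups at 3.88 and 3.26 against 3.63 and 3.45 FPKM (log2 fold change -0.01, 95% interval -0.47 to 0.46).

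ABCF1 and ABCE1, both active in translation, were the members of highest mean FPKM. ABCF1, which binds initiation factor eIF2, stood at 42.1 and 42.7 FPKM in parental and 29.3 and 35.4 FPKM in resistant libraries. The parental libraries were within 1 FPKM of each other and both resistant ones were lower, and the log2 fold change of -0.39 ± 0.17 (SE) did not pass (limma adjusted p = 0.338). ABCE1, which splits ribosomes after termination, stood at 21.6 and 24.0 against 23.2 and 17.0 FPKM. ABCF2 stood at 14.8 and 13.5 against 15.8 and 11.0 FPKM, and ABCF3 at 4.84 and 4.68 against 4.85 and 3.05 FPKM. In each of these 3 genes resistant replicate 2 was the lowest library and the other libraries lay close together. ABCE1 overlaps protein-coding genes on the opposite strand. ABCF2 has 2 named pseudogenes and overlaps a protein-coding gene on its own strand, so its level is uncertain to that extent.

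The resistant libraries themselves differed along the whole family. Resistant replicate 2 was below resistant replicate 1 for 20 of 22 members, and 66.1% of all genes tested shared that order. The exceptions were ABCB6 and ABCF1. The median log2 difference of replicate 2 from replicate 1 was -0.36 over the members and -0.15 over all genes. For 7 members (ABCC2, ABCC4, ABCC5, ABCD3, ABCF2, ABCF3 and TAP1) resistant replicate 1 lay above and resistant replicate 2 below both parental libraries, against 14.3% of all genes. Against the parental mean, the members' median came to 0.02 for resistant replicate 1 and to -0.35 for resistant replicate 2, beside -0.01 and -0.16 over all genes. The direction of the family median therefore rests on resistant replicate 2. ABC transcripts are long, with a median longest transcript of 4772 bases against 3621 over all genes tested. Among all genes the difference between the resistant libraries was -0.06 in the shortest of 5 equal classes of transcript length and -0.21 in the longest, so transcript length moves with it. What part length has in the members' values was not tested.

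**Figure D3:**
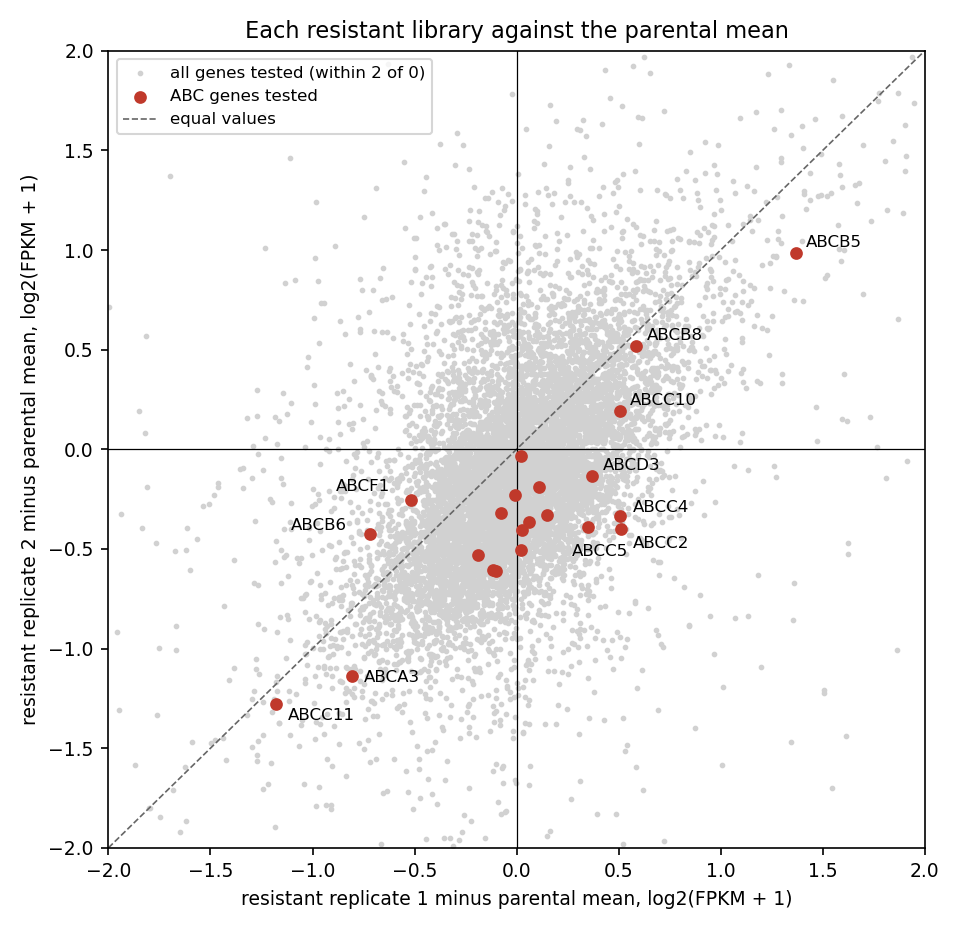
Log2(FPKM + 1) in resistant replicate 1 (x axis) and resistant replicate 2 (y axis), each minus the parental mean, for ABC genes (red) and all genes tested that lie within 2 of 0 (grey); on the dashed line both libraries are equal. Of the 22 ABC genes 20 lie below the line, and ABCC2, ABCC4, ABCC5 and ABCD3 lie right of 0 on the x axis and below 0 on the y axis. So do ABCA2, ABCD4, ABCE1, ABCF2, ABCF3 and TAP1, which are not labelled.

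Promoter sequence from RefSeq on GRCh38.p14 was found for 20 of the 23 members. ABCB4, ABCB5 and ABCC1 were the others. The 250 bases before the start are shown for the members with an entry whose groups did not overlap and whose log2 fold change was at least 0.5 in size, to let the upstream letters of genes that stood higher and lower be read side by side. Each is written 5′ to 3′ on the gene's strand. Capitals mark matches, on either strand, to the motifs searched, which were the E-box CACGTG bound by MITF and MYC, the core of the antioxidant response element TGACNNNGC, the AP-1 site TGANTCA, the TEAD site GGAATG, the GC box GGGCGG, the motif CCAAT and the TATA box TATAAA.
ABCB8 (higher in both resistant libraries, chr7:151028200-151028449, plus strand): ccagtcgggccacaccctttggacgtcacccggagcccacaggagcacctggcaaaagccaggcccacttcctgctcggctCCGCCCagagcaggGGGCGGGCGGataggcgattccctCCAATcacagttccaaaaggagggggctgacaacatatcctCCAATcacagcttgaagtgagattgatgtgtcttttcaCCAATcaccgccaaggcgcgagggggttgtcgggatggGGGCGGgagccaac
ABCB6 (lower, chr2:219218959-219219208, minus strand): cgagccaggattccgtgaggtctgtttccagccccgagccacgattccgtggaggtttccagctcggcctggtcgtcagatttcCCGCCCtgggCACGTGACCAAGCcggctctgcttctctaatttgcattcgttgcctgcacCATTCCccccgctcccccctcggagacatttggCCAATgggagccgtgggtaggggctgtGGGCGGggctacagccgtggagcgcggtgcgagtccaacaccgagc
ABCA3 (lower, chr16:2340729-2340978, minus strand): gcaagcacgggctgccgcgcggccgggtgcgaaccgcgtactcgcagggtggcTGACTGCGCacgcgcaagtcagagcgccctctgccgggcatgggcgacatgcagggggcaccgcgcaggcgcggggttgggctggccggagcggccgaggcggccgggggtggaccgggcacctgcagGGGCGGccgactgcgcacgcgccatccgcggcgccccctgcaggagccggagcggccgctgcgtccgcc
ABCC11 (lower, the most upstream of 3 starts listed, chr16:48247540-48247789, minus strand): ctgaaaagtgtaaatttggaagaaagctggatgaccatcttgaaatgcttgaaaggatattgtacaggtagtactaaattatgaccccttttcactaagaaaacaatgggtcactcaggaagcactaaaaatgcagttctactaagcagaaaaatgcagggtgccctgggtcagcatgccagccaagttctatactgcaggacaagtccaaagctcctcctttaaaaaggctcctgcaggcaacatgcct

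The windows printed for the 3 lower genes shared no motif match. Another of the 3 ABCC11 starts had 2 GC boxes. Counted by gene over any listed start, ABCA3, ABCB6 and ABCC11 thus all had a GC box. That motif was found in 42.6% of all single windows. ABCB6 had an E-box that ran into an antioxidant response core, 1 TEAD match, 1 CCAAT and 2 GC boxes, ABCA3 had 1 antioxidant response core and 1 GC box, and the printed ABCC11 window had none. ABCB8 had 4 GC boxes, of which a pair overlapped, and 3 CCAAT matches. GC content was 79.2% for ABCA3, 64.4% for ABCB6, 61.6% for ABCB8 and 42.8% for ABCC11. Across the family, GC boxes were matched in 17 of 20 genes with an entry (42.6% of all 35116 promoter windows of this length), antioxidant response cores in 7 (10.9%), E-boxes in 4 (6.34%), TATAAA in 5 (10.7%), CCAAT in 4 (32%), TEAD sites in 3 (11.9%) and AP-1 sites in 1 (6.57%). A gene with several starts counted once if any of its windows matched, while the percents are shares of single windows. Counted by window, GC boxes were matched in 18 of the members' 25 windows. Each other motif was matched in as many windows as genes. These are matches of letters only, and which start was used in these cells is not known from the files.

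Lists of genes that work with the transporters were compared in the same fit, and no member of any of the 7 lists passed the limma threshold over all genes. Among 14 tested genes of peptide loading and class I presentation, the partners of TAP1 and TAP2, 6 log2 fold changes were above 0 and 8 below, against 58.6% of all genes below, with a median of -0.11. The chaperones CALR and PDIA3 were lower in both resistant libraries (287 and 261 against 248 and 165 FPKM, and 152 and 151 against 133 and 92.8 FPKM). CANX, another chaperone of the endoplasmic reticulum, stood higher in both, at 54.2 and 67.0 against 81.3 and 152 FPKM (log2 fold change 0.87 ± 0.32 SE, limma adjusted p = 0.287).

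Of 18 genes of sterol handling and LXR, the receptor that drives ABCA1, 13 log2 fold changes were below 0, against 58.6% of all genes (median -0.10). At an unadjusted limma p under 0.05 there were 3 lower, against 10.2% of all genes, and 1 higher, against 6.06%. The fatty acid desaturase SCD, itself an LXR and SREBP target, stood at 119 and 118 FPKM in parental and 57.1 and 36.3 FPKM in resistant libraries (log2 fold change -1.36 ± 0.24 SE, limma adjusted p = 0.127). APOE, the acceptor of exported lipid, overlapped at 158 and 142 against 141 and 144 FPKM, and the lysosomal sterol carrier NPC2 stood higher at 50.0 and 52.2 against 80.1 and 69.7 FPKM. Among these 3 genes of highest mean, SCD was lower and NPC2 higher in both resistant libraries. Neither passed over all genes (limma adjusted p of NPC2 0.220). The smallest limma adjusted p of the list, 0.0916, was that of another gene.

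Genes of glutathione and NRF2, some of which make the conjugates that ABCC proteins export, had a median log2 fold change of 0.20 over 18 tested genes. Of these, 5 were higher, against 6.06% of all genes, and 0 lower, against 10.2%, at an unadjusted limma p under 0.05. The quinone reductase NQO1 stood at 269 and 253 against 467 and 401 FPKM (log2 fold change 0.73 ± 0.14 SE, limma adjusted p = 0.139), and the glutathione transferase GSTP1 at 325 and 305 against 384 and 406 FPKM. GSTO1, a glutathione transferase of the omega class, stood at 79.0 and 81.7 against 84.5 and 89.0 FPKM, close to the parental pair. Over the list, both resistant libraries lay above both parental ones for 9 genes, against 19.1% of all genes. They lay below both for 3, against 31.8%. ABCC2 and ABCC4 had 1 resistant library on either side of the parental pair. Among 11 tested xenobiotic receptors and other drug handling genes, 6 log2 fold changes were above 0 and 5 below, against 58.6% of all genes below. The median was 0.14. At an unadjusted limma p under 0.05, 2 of the 11 were higher, against 6.06% of all genes, and 0 lower, against 10.2%. The nucleoside carrier SLC29A1 stood at 22.9 and 18.5 against 17.7 and 14.8 FPKM, and the copper carrier SLC31A1, which can also take up platinum drugs, at 10.8 and 11.2 against 10.02 and 7.80 FPKM. POR, the reductase of cytochrome P450 enzymes, overlapped at 11.4 and 9.30 against 12.5 and 10.4 FPKM.

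In haem and iron-sulfur assembly, where ABCB6, ABCB8 and ABCB10 act, 18 of 23 log2 fold changes were below 0, against 58.6% of all genes (median -0.18), and both resistant libraries were below both parental ones for 9, against 31.8%. TMEM14C, a carrier of haem precursors, overlapped at 77.0 and 75.8 against 115 and 71.0 FPKM, and the mitochondrial glutathione carrier SLC25A39 at 33.6 and 31.6 against 36.6 and 28.1 FPKM. GLRX5, a glutaredoxin of iron-sulfur assembly, stood lower at 25.6 and 22.5 against 18.7 and 20.2 FPKM (limma adjusted p = 0.445). In 19 of the 23 genes resistant replicate 2 was below replicate 1, against 66.1% of all genes. For the peroxisome and cobalamin genes around the D subfamily the median was -0.09 over 20 genes, with ACSL3, an activator of long chain fatty acids, at 15.7 and 17.2 against 13.7 and 5.98 FPKM. MMADHC and MMUT, both of the cobalamin pathway, overlapped between groups, at 38.2 and 42.5 against 57.9 and 40.9 FPKM and at 15.3 and 16.9 against 18.5 and 13.5 FPKM. Over the 20 genes of ribosome recycling and initiation the median was -0.02, and ATF4, the stress transcription factor, stood at 120 and 107 against 102 and 77.5 FPKM. The initiation factor EIF1 went the other way, at 75.2 and 79.1 against 117.5 and 105.3 FPKM (log2 fold change 0.52, limma adjusted p = 0.213), and EIF2S2, a subunit of eIF2, had resistant values on either side of the parental pair, at 144 and 158 against 117 and 234 FPKM.

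The line's own identity genes leaned lower in resistant cells, though not all of them did. Of 12 melanocyte identity genes 10 had a log2 fold change below 0, against 58.6% of all genes, with a median of -0.43. At an unadjusted limma p under 0.05, 5 were lower, against 10.2% of all genes, and 0 higher, against 6.06%, and none passed over all genes. The 2 above 0 included TYRP1, higher in both resistant libraries at 1490 and 1484 against 2143 and 1514 FPKM. MLANA overlapped between groups, with a log2 fold change of -0.04. DCT, a melanin synthesis enzyme named after its values were seen, had the lowest log2 fold change of the 12. DCT stood at 4.88 and 5.46 FPKM in parental and 0.486 and 0.517 FPKM in resistant libraries (limma adjusted p = 0.0544). Its resistant mean is under 1 FPKM, so it too passed the filter through its parental level. The part of these genes in the ABC values was not tested.

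**Figure D4:**
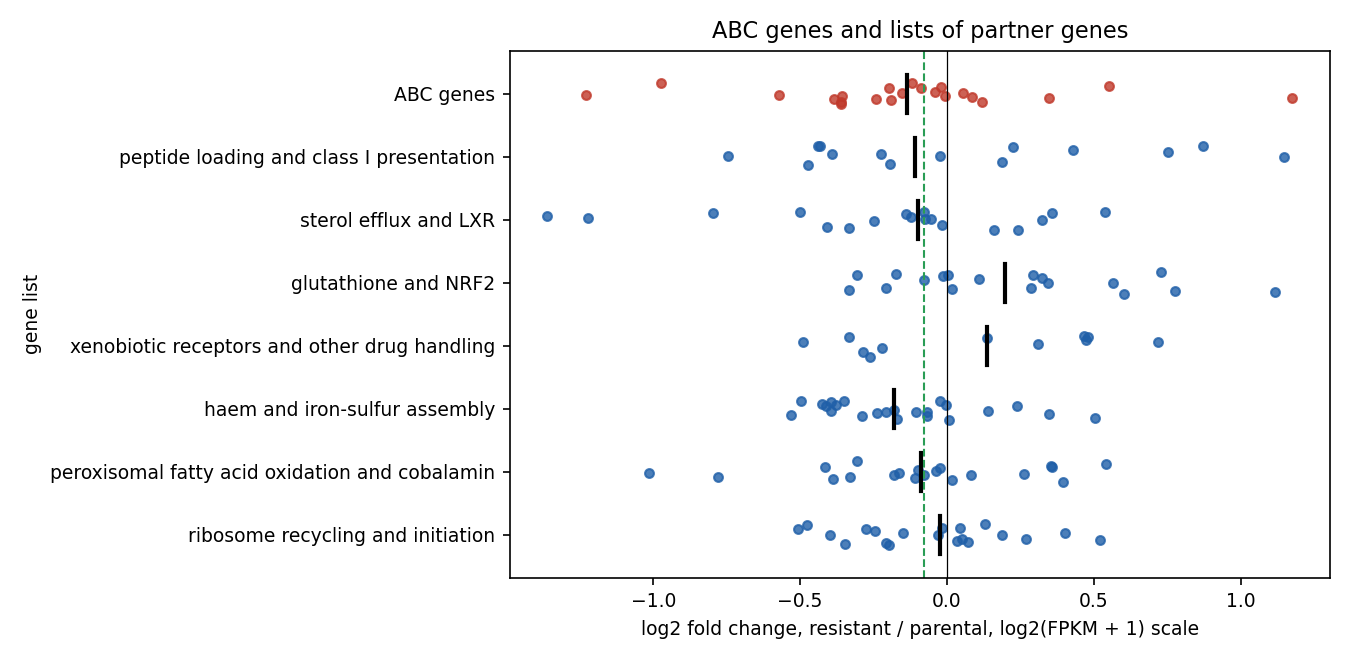
Log2 fold change of resistant over parental cells for the 22 tested ABC genes (red) and the tested members of 7 lists of partner genes (blue), each point 1 gene, with black bars at the medians and a dashed line at the median of all genes tested. Medians run from -0.18 for haem and iron-sulfur assembly to 0.20 for glutathione and NRF2, with the ABC genes at -0.14.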

How the data were processed

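RNA of 4 libraries (2 parental, 2 resistant) was analysed from the authors' deposited FPKM values, which per the file headers give 1 value per gene and library. The genome build was hg38 per the submitters' processing notes. The sources used here name no aligner, program behind FPKM, annotation release or use of strand. Of the identifiers, 11551 carry a suffix typical of annotation mapped to another build. Identifiers without version and suffix were matched to current symbols (11575 of 11650) and to GENCODE release 29 on GRCh38 (11596). Values were transformed as log2(FPKM + 1) without rescaling, filtered at a mean of 1 FPKM, and tested in limma 3.58.1 (R 4.3.3, variance trend, two-sided) with Benjamini-Hochberg adjustment over all genes at 0.05. Figures were drawn in Python 3.11.15.

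The fit was tested on simulated data with the same spread for every gene and changes larger than any member's. That test does not show how well changes of the members' size are found. The members and lists were chosen with earlier results of these data known. Among the members and list genes 4, of which 2 are members, are not reported here and are left out of the counts of members and lists. Every other member with a row is named, and of each partner list any called gene and the 3 of highest mean FPKM; DCT, a marker of the line, was named after its values were seen. Alternatives were another pseudocount, filters, scalings, no trend, the replicate block and leaving out each library.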

Additional observations from a re-analysis of the deposited data

How the results depend on the processing

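Under all 12 alternatives 0 ABC genes passed the limma adjusted threshold, with 3 to 12 of 22 or 23 members at an unadjusted limma p under 0.05 where 6.81% to 35.4% of all genes were, or 1 of 12 tested at a minimum mean of 5 FPKM where 17% were. The 12 came without resistant replicate 1, the setting of the 35.4%. Over all genes, 6 were called with all libraries, and leaving out 1 library in turn gave 0 to 30 calls, with 30 without parental replicate 1, 30 without parental replicate 2, 1 without resistant replicate 1 and 0 without resistant replicate 2 (2195 genes at an unadjusted limma p under 0.05). The family median of -0.14 was -0.35 without resistant replicate 1 and turned to 0.024 without resistant replicate 2. Median-of-ratios scaling moved the median of all genes from -0.08 to 0.01 and the split of members from 6 above and 16 below 0 to 10 and 12. Quantile normalization gave the same split of members, with a median of all genes of -0.01. With the replicate block 0 ABC genes and 5 genes over all were called, and 2 members higher and 3 lower had an unadjusted limma p under 0.05. Deviations of libraries with the same number correlated at -0.07 across genes, so the numbers were not taken to pair them. Of 254 member values under alternatives 20 changed sign, in 10 members. With median-of-ratios scaling log2 fold changes became 0.073 (ABCC5), 0.074 (ABCD4), 0.0059 (ABCF2) and 0.046 (TAP1), and with quantile normalization 0.096, 0.063, 0.019 and 0.033. Leaving out 1 library in turn gave ranges that crossed 0, namely -0.36 to 0.059 (ABCA2), -0.40 to 0.51 (ABCC2), -0.34 to 0.51 (ABCC4), -0.39 to 0.35 (ABCC5), -0.13 to 0.37 (ABCD3), -0.10 to 0.090 (ABCD4), -0.40 to 0.024 (ABCE1), -0.33 to 0.15 (ABCF2), -0.51 to 0.024 (ABCF3) and -0.19 to 0.11 (TAP1), with the low end without resistant replicate 1 and the high end without resistant replicate 2 except for ABCD4, whose ends came without parental replicates 2 and 1. The other 12 tested members kept their sign in every alternative that tested them. They were ABCA3, ABCA5, ABCB4, ABCB5, ABCB6, ABCB8, ABCB10, ABCC1, ABCC10, ABCC11, ABCF1 and TAP2. Depth is unknown, and ABCA1 and the resistant values of ABCC11 lie below 0.6 FPKM.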
